A study of Mus musculus with 4 samples.

Results

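The clade B serpins and the stefin A genes encode protease inhibitors that work mostly inside cells. They were taken as every row of the count table whose gene name is Serpinb or Stfa followed by a digit. This gave 33 of the 45706 gene rows, 29 of them Serpinb and 4 Stfa, under 32 gene names, since Serpinb10 has 2 identifiers. Serpins trap their target protease through an exposed reactive centre loop, which the protease cuts and by which it is then held. Clade B members lack the usual secretion signal and are common in stratified epithelium and in blood cells, where they act on proteases that leak from lysosomes or granules or that work in the outer epidermis. Stefin A proteins block papain-like cysteine proteases such as the cathepsins, and the mouse carries a tandem cluster of these genes where humans have a single one.

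Whole regenerating mouse digit tips were ground up 14 days after amputation, so each library mixes all tissues of the tip. There was 1 library each for an Sp6 conditional knockout (cKO), an Sp8 cKO, an Sp6+Sp8 cKO and wildtype. Both genes encode zinc-finger transcription factors of the Sp family. The deletions were induced with 5 daily tamoxifen injections of 75 mg/kg, and the digits were amputated after a further 5 days, per the labels' protocols. These protocols cover both distal and middle phalanx amputation and do not say which was used here. The sources used here name neither the Cre driver, the strain, the age nor the number of animals, nor whether wildtype mice had tamoxifen. Wildtype was batch 3 and the 3 cKO libraries were batch 1, per the labels. Against wildtype, batch and knockout therefore cannot be told apart, and only the ratios between cKO libraries stay inside a batch.

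Total counts were 13054843 in Sp6 cKO, 12588511 in Sp8 cKO, 15146015 in Sp6+Sp8 cKO and 21834883 in wildtype. Levels are given as CPM, the count relative to the TMM-scaled total of its library. With 1 library per genotype nothing was tested against variation between animals, and each comparison describes 2 libraries. The size rule used here asked for a log2 ratio of 1 or more, up or down, for 1 CPM or more in either library compared, and for an exact 95% interval of the ratio that did not reach 1. The words higher and lower are used of single genes only where this rule was met or an interval is given. Intervals cover counting error only. Sp6 itself was at 29.2 CPM in Sp6 cKO, 95.6 in Sp8 cKO, 57.8 in Sp6+Sp8 cKO and 97.7 in wildtype, and Sp8 at 66.1 CPM in Sp6 cKO, 16.8 in Sp8 cKO, 13.4 in Sp6+Sp8 cKO and 63.9 in wildtype. Counts cover the whole gene, and which part was deleted is not given. The Sp6+Sp8 cKO library thus kept more Sp6 transcript than the Sp6 cKO library. Basal and suprabasal keratinocyte markers, 7 of 7 and 10 of 10, were measured in the tissue, with summed levels of 6012 to 6628 and 17190 to 23990 CPM.

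Of the 33 members, 23 had 1 CPM or more in some library. Another 3, Serpinb1b, Serpinb9b and Stfa2l1, had some counts but stayed below 1 CPM. The remaining 7 had 0 counts in every library, namely Serpinb9c, Serpinb9d, Serpinb9e, Serpinb9f, Serpinb9g, the pseudogene Serpinb1-ps1 and the second Serpinb10 identifier. A count of 0 allows up to 3 counts, or 0.138 CPM in wildtype and 0.238 CPM in Sp8 cKO. Together the members took 0.157% of all counts in Sp6 cKO, 0.137% in Sp8 cKO, 0.152% in Sp6+Sp8 cKO and 0.139% in wildtype. The total of all members was therefore close in the 4 libraries, at 1588 CPM in Sp6 cKO, 1370.3 in Sp8 cKO, 1492 in Sp6+Sp8 cKO and 1393 in wildtype.

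Per kb of merged exon length, the mean level over the 4 libraries was highest for Serpinb5, at 180.2 CPM per kb, and lowest among the measured members for Serpinb6b, at 0.424 CPM per kb. Serpinb5 encodes maspin, an epithelial serpin with no known inhibitory action on proteases. Next came Serpinb12, at 126 CPM per kb, and Serpinb3b, at 87.3. Serpinb7 was at 34.3, Serpinb8 at 30.2 and Serpinb3a at 29.97 CPM per kb. Stfa3, the highest of the 4 genes named Stfa, was at 9.57 CPM per kb.

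**Figure D1:**
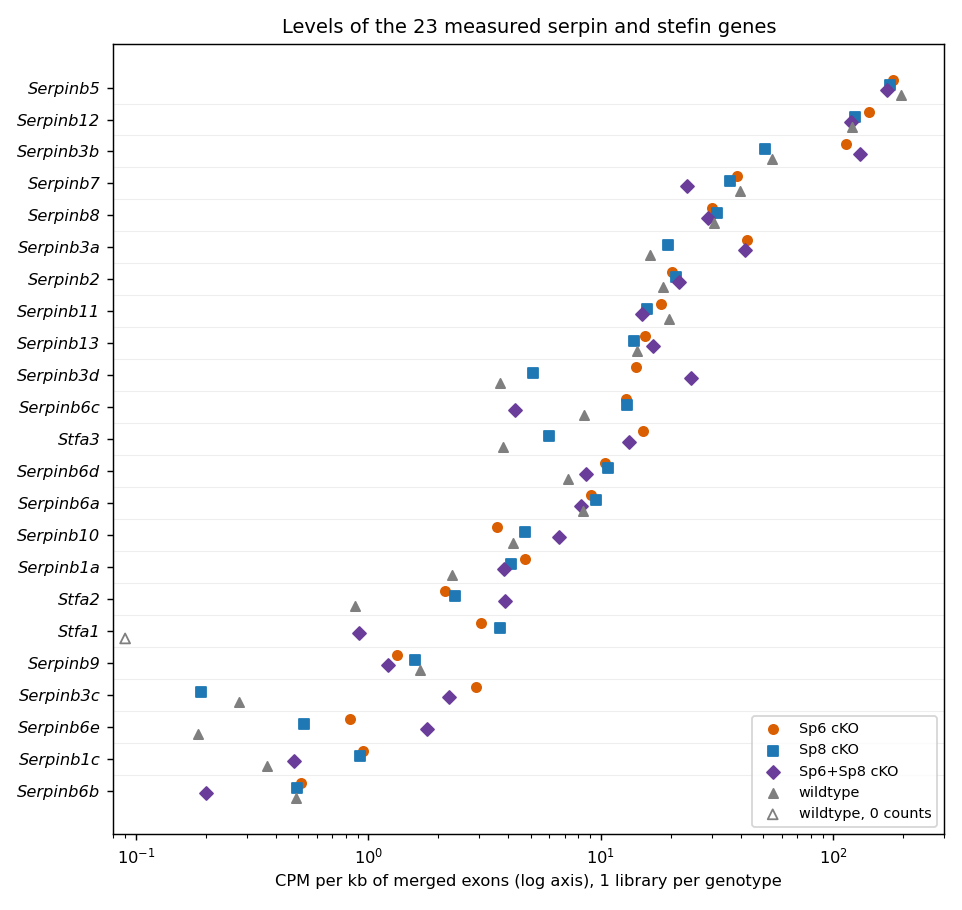
Level of each of the 23 measured members in CPM per kb of merged exons on a log axis, with 1 marker per library and the open marker for 0 counts. The 4 markers lie close together for Serpinb5, Serpinb12, Serpinb8 and Serpinb2 and apart for the Serpinb3 genes, Serpinb6e and the stefin genes.

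The chromosome 1 cluster (GRCm38) holds 12 members, and in order these are Serpinb5, Serpinb12, Serpinb13, Serpinb3a, Serpinb3d, Serpinb3b, Serpinb3c, Serpinb11, Serpinb7, Serpinb2, Serpinb10 and Serpinb8. The 4 Serpinb3 genes, mouse relatives of the human squamous cell carcinoma antigens SERPINB3 and SERPINB4, were higher in the Sp6 cKO and Sp6+Sp8 cKO libraries than in the Sp8 cKO and wildtype libraries. In humans SERPINB3 inhibits cathepsin L-type cysteine proteases and SERPINB4 inhibits cathepsin G and mast cell chymase. Summed over the 4 genes, Serpinb3 stood at 282 CPM in Sp6 cKO, 124 CPM in Sp8 cKO, 322 CPM in Sp6+Sp8 cKO and 124 CPM in wildtype. The Sp8 cKO and wildtype sums differed by 1.01-fold (95% interval 0.944 to 1.07). In bulk tissue, fewer cells of a type and less RNA per cell cannot be told apart.

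Within batch 1, the Serpinb3 sum was 2.59-fold higher in Sp6+Sp8 cKO than in Sp8 cKO (95% interval 2.45 to 2.74) and 2.27-fold higher in Sp6 cKO than in Sp8 cKO (2.14 to 2.41). Between Sp6+Sp8 cKO and Sp6 cKO the ratio was 1.14 (1.09 to 1.19), inside the size rule. Against wildtype, across batches, the sum was 2.29-fold higher in Sp6 cKO (2.17 to 2.40) and 2.60-fold higher in Sp6+Sp8 cKO (2.48 to 2.73).

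Serpinb3b, the most abundant copy, lies at chromosome 1, 107153940 to 107278361, on the minus strand. It stood at 191 CPM in Sp6 cKO, 85.8 CPM in Sp8 cKO, 220.5 CPM in Sp6+Sp8 cKO and 92.0 CPM in wildtype. It was 2.57-fold higher in Sp6+Sp8 cKO than in Sp8 cKO (95% interval 2.40 to 2.75), while Sp8 cKO against wildtype gave a log2 ratio of -0.10. Serpinb3a (107045587 to 107052303) was at 69.3 CPM in Sp6 cKO, 31.8 in Sp8 cKO, 67.8 in Sp6+Sp8 cKO and 26.6 in wildtype. The pair of libraries labelled for loss of Sp6 was again the higher one, with log2 ratios of 1.12 for Sp6 cKO against Sp8 cKO and 1.09 for Sp6+Sp8 cKO against Sp8 cKO.

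Serpinb3d (107078167 to 107083506) had the widest range of the copies above 10 CPM. It was at 17.2 CPM in Sp6 cKO, 6.19 CPM in Sp8 cKO, 29.6 CPM in Sp6+Sp8 cKO and 4.46 CPM in wildtype. It was 4.79-fold higher in Sp6+Sp8 cKO than in Sp8 cKO (95% interval 3.76 to 6.17) and 2.78-fold higher in Sp6 cKO than in Sp8 cKO (2.14 to 3.65). Between Sp6+Sp8 cKO and Sp6 cKO the ratio was 1.72 (1.46 to 2.03), which is inside the size rule. Its share of the Serpinb3 sum was 6.10% in Sp6 cKO, 4.99% in Sp8 cKO, 9.22% in Sp6+Sp8 cKO and 3.61% in wildtype. Serpinb3c (107271201 to 107278371), the rarest copy, had 62 counts in Sp6 cKO, 4 in Sp8 cKO, 57 in Sp6+Sp8 cKO and 10 in wildtype, and was 15.1-fold higher in Sp6 cKO than in Sp8 cKO (95% interval 5.62 to 57.3).

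**Figure D2:**
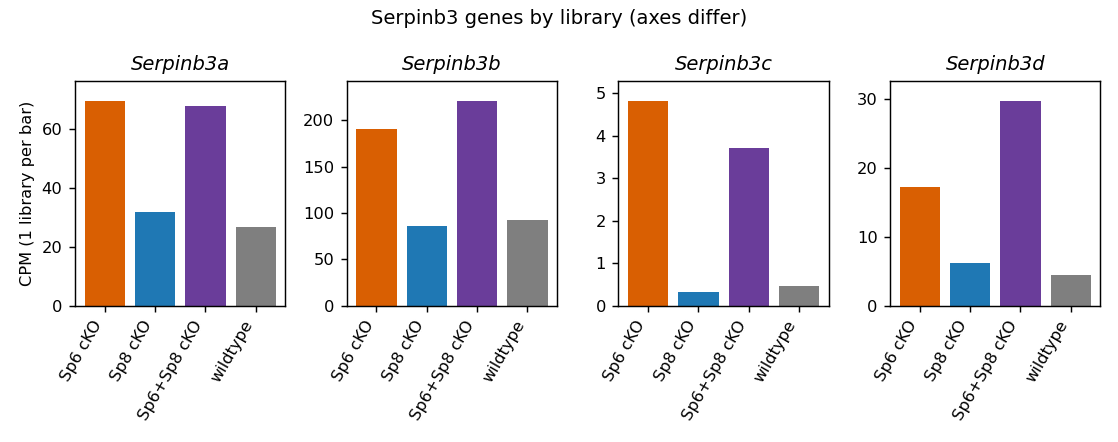
CPM of the 4 Serpinb3 genes, with 1 bar per library, bars from 0 and a separate axis for each gene. In each gene the Sp6 cKO and Sp6+Sp8 cKO bars stand above the Sp8 cKO and wildtype bars.

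The copies are not independent readings. In the GENCODE M21 transcripts, 33.5% of the 31-base words of Serpinb3a, 35.4% of Serpinb3b, 28.7% of Serpinb3c and 32.97% of Serpinb3d also occur in transcripts of another gene. The single gene sharing the largest part was the pseudogene Gm8080 for Serpinb3a, at 16.2% of its words. For Serpinb3d it was the pseudogene Gm8089, at 16.3%. Serpinb3b and Serpinb3c shared most with each other. The annotated Serpinb3b gene also overlaps Serpinb3c on the same strand over nearly its whole length. The division of reads among the copies is therefore uncertain, and the summed level depends less on it. The sum leaves out Gm8080 and Gm8089, so the division of reads with these pseudogenes remains uncertain in it.

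The stretches just upstream of the RefSeq starts show how far the copies resemble each other there, and are given because these 4 genes were higher in the same libraries. They are the 250 bases 5′ of the RefSeq start (GRCm38.p6, minus strand, written 5′ to 3′), at chr1:107052304-107052553 for Serpinb3a, chr1:107161115-107161364 for Serpinb3b, chr1:107278372-107278621 for Serpinb3c and chr1:107083481-107083730 for Serpinb3d. Capitals mark TATAAA on either strand.
Serpinb3a: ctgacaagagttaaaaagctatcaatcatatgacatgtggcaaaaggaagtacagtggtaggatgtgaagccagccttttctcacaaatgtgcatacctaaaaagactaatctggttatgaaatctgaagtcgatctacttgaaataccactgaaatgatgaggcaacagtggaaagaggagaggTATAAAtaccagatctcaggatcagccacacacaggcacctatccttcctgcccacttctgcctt
Serpinb3b: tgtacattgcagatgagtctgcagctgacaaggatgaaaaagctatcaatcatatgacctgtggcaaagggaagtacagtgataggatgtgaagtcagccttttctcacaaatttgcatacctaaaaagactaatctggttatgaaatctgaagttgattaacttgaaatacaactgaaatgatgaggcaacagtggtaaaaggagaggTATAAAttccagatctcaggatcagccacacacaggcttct
Serpinb3c: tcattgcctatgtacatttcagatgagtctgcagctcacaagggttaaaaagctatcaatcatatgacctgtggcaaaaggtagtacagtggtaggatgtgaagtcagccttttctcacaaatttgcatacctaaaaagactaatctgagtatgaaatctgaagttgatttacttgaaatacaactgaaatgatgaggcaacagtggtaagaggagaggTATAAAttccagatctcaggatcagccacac
Serpinb3d: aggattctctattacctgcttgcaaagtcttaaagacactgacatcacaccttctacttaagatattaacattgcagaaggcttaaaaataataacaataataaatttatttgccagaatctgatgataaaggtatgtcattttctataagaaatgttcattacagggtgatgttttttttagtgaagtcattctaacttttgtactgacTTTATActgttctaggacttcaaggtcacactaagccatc
In a global alignment the Serpinb3b and Serpinb3c stretches were 88.1% identical, Serpinb3a and Serpinb3b 77.0%, and Serpinb3a and Serpinb3c 71.8%. Serpinb3d stood apart, at 49.3% to 51.7% identity with the others, although it was higher in the same libraries. TATAAA was found in all 4 stretches, and lies on the opposite strand in Serpinb3d. The shares were 28.6% of the 35 member windows, which include these 4, and 12.4% of the 32851 RefSeq windows of the same length. The Serpinb3a, Serpinb3b and Serpinb3c stretches resemble each other, so they are not separate finds. TATAAA was in 0 of the 4 Stfa windows, that of Stfa3 included. The other motifs searched on both strands were the GC box GGGCGG and the GT box CCACCC, letters of the kind that Sp factors are known to bind, and the AP-1 letters TGANTCA. None of these 3 motifs was in the 4 Serpinb3 windows, beside 32.7%, 28.1% and 6.75% of all windows. Among the 35 member windows the shares were 11.4%, 34.3% and 22.9%. Some genes have several windows, and sites in overlapping windows are counted again. The Serpinb2 windows hold the same AP-1 letters and the same TATAAA, and the Serpinb6d windows the same GT box. A GC box and a GT box overlapped in 1.64% of all windows and in 0 of the 35 member windows, which cover 29 member names, with Serpinb1a, Serpinb13 and Serpinb1-ps1 not matched.

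The Serpinb3 genes lie between Serpinb13 and Serpinb11, which did not pass the size rule in any of the 6 comparisons. Serpinb13, in humans headpin, an inhibitor of cathepsins L and K, was at 25.97 CPM in Sp6 cKO, 23.1 in Sp8 cKO, 27.9 in Sp6+Sp8 cKO and 24.0 in wildtype. Serpinb11, in mouse an inhibitor of trypsin-like proteases, was at 39.5 CPM in Sp6 cKO, 34.6 in Sp8 cKO, 32.8 in Sp6+Sp8 cKO and 42.7 in wildtype. Serpinb5 was at 495 CPM in Sp6 cKO, 483 in Sp8 cKO, 466 in Sp6+Sp8 cKO and 538 in wildtype, and Serpinb12, in humans also an inhibitor of trypsin-like proteases, at 354 CPM in Sp6 cKO, 308 in Sp8 cKO, 297 in Sp6+Sp8 cKO and 300.1 in wildtype. Serpinb8, which in humans inhibits the processing protease furin, was at 144 CPM in Sp6 cKO, 151 in Sp8 cKO, 138 in Sp6+Sp8 cKO and 146 in wildtype. Serpinb2, plasminogen activator inhibitor type 2, was at 47.7 CPM in Sp6 cKO, 49.5 in Sp8 cKO, 51.1 in Sp6+Sp8 cKO and 43.5 in wildtype. For these 6 genes the highest library exceeded the lowest by 1.09-fold for Serpinb8 to 1.30-fold for Serpinb11.

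A pair of other chromosome 1 genes had their extreme value in Sp6+Sp8 cKO without passing the size rule. Serpinb7, a gene mutated in a human thickening of palm and sole skin, was at 75.2 CPM in Sp6 cKO, 70.4 CPM in Sp8 cKO, 45.8 CPM in Sp6+Sp8 cKO and 77.4 CPM in wildtype. It was 1.64-fold lower in Sp6+Sp8 cKO when set against Sp6 cKO (95% interval 1.49 to 1.81) and 1.54-fold lower than in Sp8 cKO (1.39 to 1.70). The suprabasal markers, 10 of 10 measured, summed to 23600 CPM in Sp6 cKO, 19910 in Sp8 cKO, 17190 in Sp6+Sp8 cKO and 23990 in wildtype, also lowest in Sp6+Sp8 cKO, and 11 nail and hair markers to 5529 CPM in Sp6 cKO, 6134 in Sp8 cKO, 2868 in Sp6+Sp8 cKO and 5317 in wildtype. Their part in the Serpinb7 level, and in that of Serpinb6c given further on, was not tested. Serpinb10, bomapin, a serpin of blood-forming cells that the annotation lists as a polymorphic pseudogene, was at 12.5 CPM in Sp6 cKO, 16.4 in Sp8 cKO, 23.1 in Sp6+Sp8 cKO and 14.7 in wildtype. Its ratio of Sp6+Sp8 cKO to Sp6 cKO was 1.85 (1.53 to 2.25). Its gene overlaps that of Serpinb2, and 7.52% of its 31-base words also occur in Serpinb2 transcripts.

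**Figure D3:**
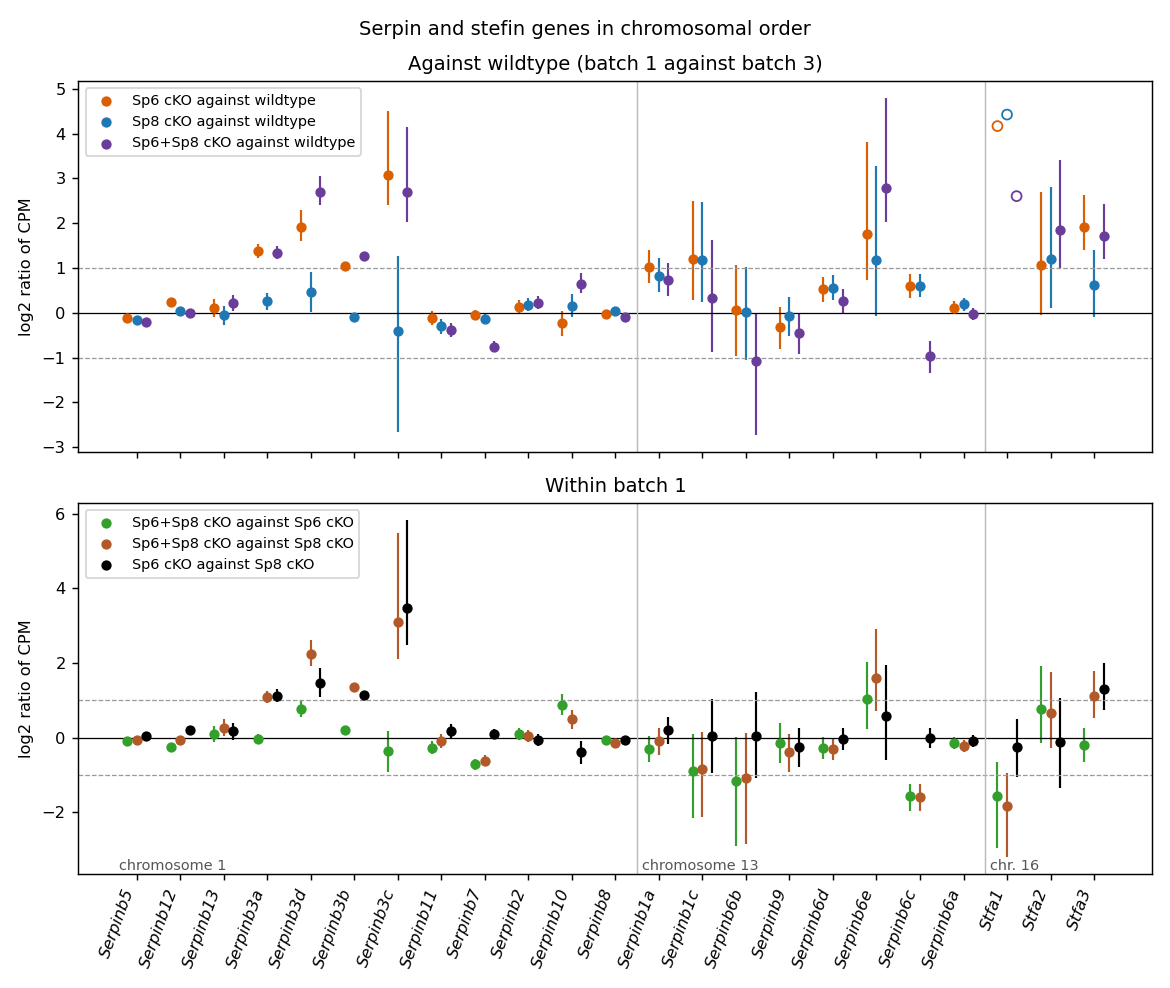
Log2 ratio of CPM for the 23 measured members in chromosomal order, with points for the ratio with a prior count of 2, bars for the 95% counting interval and dashed lines at the size threshold of 1. Open points mark ratios to a library with 0 counts. The Serpinb3 genes stand above their neighbours in the comparisons of Sp6 cKO and Sp6+Sp8 cKO with wildtype and with Sp8 cKO.

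Of the 33 members, 21 reached 1 CPM in either library in the comparisons of Sp8 cKO and of Sp6+Sp8 cKO with wildtype, and 23 in the other 4 comparisons. The shares of all genes are likewise over genes that reached it. Sp6 cKO had 5 of the 23 compared higher and 0 lower than Sp8 cKO, where 3.1% of all genes compared passed the rule, 1.35% higher and 1.75% lower. The 5 were the Serpinb3 genes and Stfa3. In Sp6+Sp8 cKO 6 of 23 were higher and 2 lower than in Sp8 cKO (4.68% of all genes, 1.88% higher and 2.8% lower). Set against Sp6 cKO, 1 of 23 was higher and 2 were lower in Sp6+Sp8 cKO (3.97% of all genes, 1.89% higher and 2.08% lower). Sp6 cKO had 9 of 23 higher than in wildtype and 0 lower (4.4% of all genes, 2.24% higher and 2.16% lower). Sp8 cKO had 3 of 21 higher than in wildtype and 0 lower (3.82% of all genes, 2.27% higher and 1.55% lower). Sp6+Sp8 cKO had 7 of 21 higher than in wildtype and 1 lower (5.79% of all genes, 2.84% higher and 2.95% lower). These counts contain copies that share reads, and the 3 comparisons with wildtype share that library. Among the members that reached 1 CPM in either library, the median log2 ratio to wildtype was 0.52 for Sp6 cKO, 0.19 for Sp8 cKO and 0.23 for Sp6+Sp8 cKO, beside -0.01, -0.01 and -0.02 for all genes compared. Within batch 1 it was 0.06 for Sp6 cKO against Sp8 cKO, -0.05 for Sp6+Sp8 cKO against Sp8 cKO and -0.14 for Sp6+Sp8 cKO against Sp6 cKO. The medians for all genes compared were -0.002, -0.02 and -0.01 in the same order.

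The chromosome 13 cluster holds 16 members, of which 8 were measured. Summed, it stood at 102 CPM in Sp6 cKO, 104 CPM in Sp8 cKO, 80.3 CPM in Sp6+Sp8 cKO and 80.8 CPM in wildtype. The Serpinb6 copies went different ways in Sp6+Sp8 cKO. Serpinb6a, whose human counterpart inhibits cathepsin G, was at 48.8 CPM in Sp6 cKO, 51.8 in Sp8 cKO, 44.4 in Sp6+Sp8 cKO and 45.2 in wildtype, within a 1.17-fold range.

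Serpinb6c (chromosome 13, 33879816 to 33905708) was at 17.8 CPM in Sp6 cKO, 17.9 CPM in Sp8 cKO, 5.91 CPM in Sp6+Sp8 cKO and 11.7 CPM in wildtype. It was 3.00-fold lower in Sp6+Sp8 cKO when set against Sp6 cKO (95% interval 2.34 to 3.87) and 3.03-fold lower than in Sp8 cKO (2.37 to 3.91). Serpinb6e (33832345 to 33843408), its neighbour, had 16 counts in Sp6 cKO, 10 in Sp8 cKO, 41 in Sp6+Sp8 cKO and 6 in wildtype. Sp6+Sp8 cKO exceeded Sp6 cKO 2.15-fold (1.18 to 4.10) and Sp8 cKO 3.36-fold (1.65 to 7.51). Against wildtype it was 9.66-fold higher in Sp6+Sp8 cKO (4.08 to 27.8) and 4.50-fold higher in Sp6 cKO (1.67 to 14.0). Serpinb6d was at 15.3 CPM in Sp6 cKO, 15.6 in Sp8 cKO, 12.7 in Sp6+Sp8 cKO and 10.6 in wildtype and did not pass the rule. Serpinb6b, with 15 counts in Sp6 cKO, 14 in Sp8 cKO, 7 in Sp6+Sp8 cKO and 24 in wildtype, was lower in Sp6+Sp8 cKO than in wildtype at a log2 ratio of -1.08, a call that was lost with library totals as the scaling, where the interval reached 1. Of the 31-base words, 22.9% of Serpinb6c and 4.49% of Serpinb6e occur in another gene. Summed over the 5 copies, Serpinb6 differed between Sp6+Sp8 cKO and Sp6 cKO by a log2 ratio of -0.35.

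Serpinb1a, the mouse gene closest to human SERPINB1, an inhibitor of neutrophil elastase, cathepsin G and proteinase 3, was at 10.9 CPM in Sp6 cKO, 9.45 in Sp8 cKO, 8.84 in Sp6+Sp8 cKO and 5.29 in wildtype. It was 2.05-fold higher in Sp6 cKO than in wildtype (95% interval 1.59 to 2.65), and its log2 ratios to wildtype of 0.82 for Sp8 cKO and 0.73 for Sp6+Sp8 cKO were inside the size rule. The 12 macrophage and monocyte markers summed to 424 CPM in Sp6 cKO, 431 in Sp8 cKO, 354 in Sp6+Sp8 cKO and 293 in wildtype, also lowest in wildtype. Of these, Adgre1, Fcgr1 and Ly6c2 were lowest in Sp6+Sp8 cKO, and none of the 12 passed the rule there against wildtype. The part of these markers in the Serpinb1a level was not tested. Serpinb1c, with 20 counts in Sp6 cKO, 19 in Sp8 cKO, 12 in Sp6+Sp8 cKO and 13 in wildtype, was higher than in wildtype in Sp6 cKO and Sp8 cKO. Serpinb9, an inhibitor of granzyme B, was at 4.65 CPM in Sp6 cKO, 5.56 in Sp8 cKO, 4.22 in Sp6+Sp8 cKO and 5.84 in wildtype and passed the rule in no comparison. Granzyme B itself, Gzmb, had 2 counts in Sp6 cKO, 0 in Sp8 cKO, 1 in Sp6+Sp8 cKO and 0 in wildtype.

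The stefin A genes lie in a chromosome 16 cluster. Stfa3 (36450537 to 36455392, minus strand), which shares no 31-base word with another gene, had 81 counts in Sp6 cKO, 31 in Sp8 cKO, 84 in Sp6+Sp8 cKO and 34 in wildtype. Its levels were 6.28 CPM in Sp6 cKO, 2.46 in Sp8 cKO, 5.46 in Sp6+Sp8 cKO and 1.56 in wildtype, the same division of the libraries as in the Serpinb3 genes. It was 2.55-fold higher in Sp6 cKO than in Sp8 cKO (95% interval 1.67 to 3.995) and 2.22-fold higher in Sp6+Sp8 cKO than in Sp8 cKO (1.45 to 3.47). Against wildtype it was 4.02-fold higher in Sp6 cKO (2.66 to 6.18) and 3.49-fold higher in Sp6+Sp8 cKO (2.32 to 5.36).

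The other stefin genes had few counts. Stfa2 had 13 counts in Sp6 cKO, 14 in Sp8 cKO, 28 in Sp6+Sp8 cKO and 9 in wildtype, and was 4.40-fold higher in Sp6+Sp8 cKO than in wildtype (95% interval 2.02 to 10.6). In Sp8 cKO it was 2.68-fold higher than in wildtype (1.08 to 7.03). Stfa2l1 had 3 counts in Sp6 cKO, 5 in Sp8 cKO, 10 in Sp6+Sp8 cKO and 2 in wildtype. Of the 31-base words of Stfa2, 25.9% occur in Stfa2l1, and 29.3% of those of Stfa2l1 occur in Stfa2. The counts of Stfa2 and Stfa2l1 are therefore not independent. Stfa1 had 28 counts in Sp6 cKO, 33 in Sp8 cKO, 10 in Sp6+Sp8 cKO and 0 in wildtype. Taking 3 counts for the wildtype library, the ratio to wildtype was 15.7 in Sp6 cKO and 19.0 in Sp8 cKO, while the exact 95% intervals with 0 counts begin at 11.97 for Sp6 cKO and 14.6 for Sp8 cKO. Within batch 1, Stfa1 was 3.34-fold lower in Sp6+Sp8 cKO when set against Sp6 cKO (1.57 to 7.71). Of its 31-base words, 39.0% occur in the stefin A gene BC100530, so its counts are uncertain.

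BC100530 and BC117090, stefin genes of the same cluster that do not carry the Stfa name, held most of the stefin A counts. BC100530 was at 36.8 CPM in Sp6 cKO, 22.5 CPM in Sp8 cKO, 52.3 CPM in Sp6+Sp8 cKO and 17.6 CPM in wildtype. BC117090 was at 1.78 CPM in Sp6 cKO, 1.67 in Sp8 cKO, 8.45 in Sp6+Sp8 cKO and 3.08 in wildtype, highest in Sp6+Sp8 cKO. With these and the 3 other named relatives Gm5483, Gm5416 and 2010005H15Rik, the 9 stefin A genes summed to 48.5 CPM in Sp6 cKO, 30.7 CPM in Sp8 cKO, 69.7 CPM in Sp6+Sp8 cKO and 22.8 CPM in wildtype. That sum was 2.27-fold higher in Sp6+Sp8 cKO than in Sp8 cKO (95% interval 2.02 to 2.56), and 1.58 times the Sp8 cKO value in Sp6 cKO (1.39 to 1.80).

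**Figure D4:**
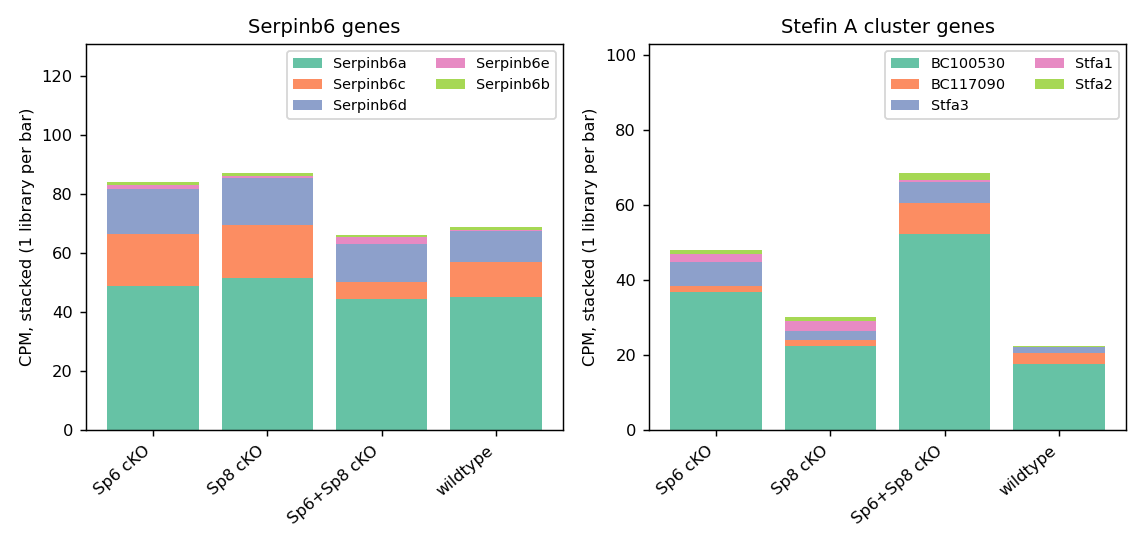
Stacked CPM of the 5 Serpinb6 genes at left and of 5 stefin A cluster genes at right, with 1 bar per library and both axes from 0; stefin genes below 1 CPM are left out. Serpinb6c takes a smaller part in Sp6+Sp8 cKO, and BC100530 makes up most of each stefin bar.

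Stefin A genes and Serpinb1a are also known from neutrophils. The 14 neutrophil markers, of which 13 reached 1 CPM, summed to 158 CPM in Sp6 cKO, 117 CPM in Sp8 cKO, 162 CPM in Sp6+Sp8 cKO and 94.7 CPM in wildtype. S100a8, a calprotectin subunit that keratinocytes also make, was at 50.2 CPM in Sp6 cKO, 30.6 in Sp8 cKO, 69.2 in Sp6+Sp8 cKO and 8.83 in wildtype. Ngp, a granule protein, was at 18.4 CPM in Sp6 cKO, 14.8 in Sp8 cKO, 16.2 in Sp6+Sp8 cKO and 19.9 in wildtype. It passed the rule in no comparison. Ly6g stayed below 1 CPM, with 1 count in Sp6 cKO, 5 in Sp8 cKO, 0 in Sp6+Sp8 cKO and 8 in wildtype. Elane, neutrophil elastase, was at 0.93 CPM in Sp6 cKO, 1.11 in Sp8 cKO, 0.325 in Sp6+Sp8 cKO and 1.06 in wildtype. These levels rest on 5 to 23 counts per library. The 9 T cell and natural killer markers, 5 of them measured, summed to 22.95 CPM in Sp6 cKO, 8.26 CPM in Sp8 cKO, 20.4 CPM in Sp6+Sp8 cKO and 3.96 CPM in wildtype, with Ncr1 at 0 in the 3 cKO libraries. The T cell and natural killer sum was higher in Sp6 cKO and Sp6+Sp8 cKO than in Sp8 cKO and wildtype, as were the Serpinb3 genes and Stfa3. So were Cd3e, Cd3g, Trdc and Il2rb. Unlike the Serpinb3 sum, Trdc was also higher in Sp8 cKO than in wildtype, at 2.78 against 0.828 CPM. Cd3d stayed below 1 CPM, with 7 counts in Sp6 cKO, 2 in Sp8 cKO, 4 in Sp6+Sp8 cKO and 4 in wildtype. Trac was highest in Sp8 cKO, at 1.03 CPM against 0.465 in Sp6 cKO and 0.52 in Sp6+Sp8 cKO. The natural killer genes Nkg7, Klrb1c and Ncr1 stayed below 1 CPM. The part of this sum in the Serpinb3 and Stfa3 results was not tested. The neutrophil markers did not move together. In Sp6+Sp8 cKO against Sp8 cKO 4 were higher, S100a8, S100a9, Lcn2 and Camp, and 2 lower, Elane and Mpo, and the part of these markers in those results was not tested. S100a9, the partner of S100a8, was at 9.62 CPM in Sp6 cKO, 7.07 in Sp8 cKO, 15.4 in Sp6+Sp8 cKO and 1.52 in wildtype, and Lcn2, lipocalin 2, at 18.6 CPM in Sp6 cKO, 6.67 in Sp8 cKO, 16.9 in Sp6+Sp8 cKO and 4.28 in wildtype. The median log2 ratio of the neutrophil markers to wildtype was -0.06 for Sp6 cKO, 0.12 for Sp8 cKO and -0.29 for Sp6+Sp8 cKO. The 9 wound keratinocyte markers summed to 3409 CPM in Sp6 cKO, 3049 in Sp8 cKO, 2524 in Sp6+Sp8 cKO and 2998 in wildtype, lowest in Sp6+Sp8 cKO. Of these, Sprr2d, a cornified envelope protein, was at 232 CPM in Sp6 cKO, 69.5 in Sp8 cKO, 165 in Sp6+Sp8 cKO and 77.0 in wildtype. It was the 1 wound marker past the rule in Sp6+Sp8 cKO against Sp8 cKO. The other log2 ratios there went both ways. They were -0.37 for Krt6a, -0.64 for Krt6b, -0.39 for Krt16, -0.78 for Sprr1a and -0.49 for Sprr1b. Those of Krt17, Stat3 and Hbegf were 0.23, 0.22 and 0.62. Against wildtype Sprr1b was lower in Sp6+Sp8 cKO, at 172 against 404 CPM.

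For the proteases and other inhibitors, the shares of all genes past the rule against wildtype were 4.4% for Sp6 cKO, 3.82% for Sp8 cKO and 5.79% for Sp6+Sp8 cKO. Of 13 measured cathepsins, Ctsk, the collagen-degrading cathepsin K, was higher in Sp8 cKO than in wildtype, at 92.6 against 37.1 CPM, and Ctse, an aspartic protease, was lower in Sp6+Sp8 cKO than in Sp8 cKO, at 7.21 against 14.9 CPM. No cathepsin passed in Sp6 cKO or Sp6+Sp8 cKO against wildtype. Of 25 epidermal serine proteases, Sp6 cKO had 3 higher and 0 lower than Sp8 cKO, beside 3.1% of all genes. These were the kallikreins Klk6, Klk12 and Klk14, at log2 ratios of 1.05, 1.59 and 1.37. Sp6+Sp8 cKO had 2 higher and 2 lower than Sp8 cKO (4.68% of all genes). Set against Sp6 cKO, it had 0 higher and 2 lower (3.97%). Against wildtype 3 were higher in Sp6 cKO (Klk6, Klk12 and Tmprss11b), 2 in Sp8 cKO (Klk1 and Tmprss11b) and 1 in Sp6+Sp8 cKO (Tmprss11b), where Tmprss11c and Tmprss11f were lower. Klk14, which takes part in shedding of the outer skin layer, was at 109.6 CPM in Sp6 cKO, 42.2 CPM in Sp8 cKO, 52.8 CPM in Sp6+Sp8 cKO and 84.2 CPM in wildtype. The membrane protease gene Tmprss11c was at 33.1 CPM in Sp6 cKO, 21.7 in Sp8 cKO, 7.08 in Sp6+Sp8 cKO and 30.7 in wildtype, lower in Sp6+Sp8 cKO than in each of the others.

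Of 6 measured plasminogen activation genes none passed the size rule in any of the 6 comparisons. Of 7 measured genes for neutrophil, cytotoxic and mast cell proteases 1 was higher in Sp6 cKO than in wildtype, the mast cell protease Mcpt4, at a log2 ratio of 1.19. In Sp8 cKO 4 of the 7 were higher than in wildtype, Mcpt4 at 1.41, Tpsb2, Tpsab1 and Cpa3, all of mast cells, beside 3.82% of all genes. In Sp6+Sp8 cKO against wildtype 2 were lower, Mpo and Elane. Within batch 1, Sp6+Sp8 cKO had 4 of the 7 lower than Sp8 cKO (Mcpt4 at -1.26, Mpo, Elane and Tpsb2) and 2 lower than Sp6 cKO (Mcpt4 at -1.05 and Mpo), beside 4.68% and 3.97% of all genes. Of 7 measured cystatin-type genes none passed the rule in Sp8 cKO against wildtype, while in Sp6 cKO BC100530 was higher and Ahsg lower. In Sp6+Sp8 cKO 2 were higher and 2 lower than in wildtype. The higher ones were BC100530 and BC117090. The lower ones were Fetub, fetuin-B, at 30.2 against 94.8 CPM, and Ahsg, fetuin-A, with 5 against 23 counts. Within batch 1, the same 4 genes passed in the same directions in Sp6+Sp8 cKO against Sp8 cKO (4.68% of all genes). Set against Sp6 cKO, BC117090 was higher and Fetub lower (3.97%). Fetub had log2 ratios of -1.37 to Sp6 cKO and -1.23 to Sp8 cKO. Ahsg was lower in Sp6 cKO than in Sp8 cKO (3.1%).

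Of 21 measured serpins outside clade B, Sp6 cKO had 0 higher and 2 lower than wildtype, Sp8 cKO had 1 higher and 2 lower, and Sp6+Sp8 cKO had 1 higher and 2 lower. Serpina3a was lower in each, Serpind1 lower in Sp6 cKO, Serpina1a lower in Sp8 cKO and Sp6+Sp8 cKO, Serpina1e higher in Sp8 cKO and Serpina3b higher in Sp6+Sp8 cKO. Serpina3a was at 11.8 CPM in Sp6 cKO, 11.5 in Sp8 cKO, 10.5 in Sp6+Sp8 cKO and 36.9 in wildtype, and Serpina3b at 229 CPM in Sp6 cKO, 340.0 in Sp8 cKO, 450 in Sp6+Sp8 cKO and 199.6 in wildtype. Their order of the libraries differs from that of the Serpinb3 genes. Within batch 1, Sp6+Sp8 cKO had 2 of these 21 serpins higher and 1 lower than Sp6 cKO (3.97% of all genes). It had 1 higher and 0 lower than Sp8 cKO (4.68%). Sp6 cKO had 1 higher and 1 lower than Sp8 cKO (3.1%). Of 11 measured epithelial inhibitors of other families, 2 passed upward against wildtype in Sp6 cKO and 0 downward, 1 higher and 0 lower in Sp8 cKO, and 2 higher and 2 lower in Sp6+Sp8 cKO. The higher ones were Slpi and Wfdc2 in Sp6 cKO, Slpi in Sp8 cKO, and Wfdc2 and Wfdc18 in Sp6+Sp8 cKO, where Wfdc12 and Spink6 were lower. Slpi had 13 to 19 counts per library, Wfdc2 12 to 26 and the serpin Serpina1e 3 to 15. Within batch 1 the only epithelial inhibitor past the rule was Spink6, lower in Sp6+Sp8 cKO than in Sp8 cKO. Wfdc12, a whey acidic protein domain inhibitor, was at 215 CPM in Sp6 cKO, 188 in Sp8 cKO, 183 in Sp6+Sp8 cKO and 374 in wildtype. Of 14 caspase, gasdermin and interleukin-1 genes, Il1b, interleukin-1 beta, was higher than in wildtype in each cKO library, with log2 ratios of 1.66 for Sp6 cKO, 1.40 for Sp8 cKO and 1.93 for Sp6+Sp8 cKO. Il1b had 26 counts in Sp6 cKO, 21 in Sp8 cKO, 38 in Sp6+Sp8 cKO and 12 in wildtype. It did not pass the rule within batch 1. Casp4, an inflammatory caspase, was the other gene that passed, at 10.01 CPM in Sp6+Sp8 cKO against 4.64 CPM in wildtype.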

How the data were processed

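Poly-A RNA of the digit tips was sequenced as strand-marked pairs of 150 bp, per the labels' protocols. Per the submitters' processing notes, the tools were STAR, Salmon, featureCounts, Trim Galore 0.6.4, deepTools and edgeR, with no role stated, on build GRCm38. The authors deposited estimated counts per gene, not scaled for depth; between 84.6% and 87.1% of values were whole. Which annotation they used is not stated. A further 1 value column belongs to no sample in the labels and was left out.

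The estimated counts were rounded to whole numbers and scaled with TMM (edgeR 4.0.16, R 4.3.3) using all 4 libraries together. Log2 ratios took a prior count of 2. Exact Clopper-Pearson intervals of ratios were conditional on the sum of both counts. The protocols name no molecular identifiers, so PCR copies cannot be told from molecules, and intervals and the floor of 3 counts cover counting error only. Positions and exon lengths came from GENCODE M21, where 98.8% of identifiers were found, and upstream sequences from RefSeq. The size rule was tried on simulated counts with counting error only, and changes were set in 1 comparison in genes with a mean above 5 CPM. This does not address variation between animals, changes below 5 CPM or the division of reads among copies. Members and lists were chosen with earlier results of these data known. Every member at 1 CPM or more in some library was described. Genes of the protease and inhibitor lists were named if past the size rule with 5 CPM or more in the higher library. Marker lists are given by their sums and counts; not every marker past the rule is named, and those named were picked after their values were seen. Klk1, Klk12, Tmprss11b, Ahsg, Il1b, Gzmb, Elane, Slpi, Wfdc2, Serpind1, Serpina1a, Serpina1e, the pseudogenes sharing words with Serpinb3 and the stefin relatives below that level were named after their values were seen, and the stefin sum of 9 genes was added then too. Alternatives were DESeq2 1.42.0 size factors, library totals with and without the 20 most abundant genes, other minimum CPM, prior count and fold settings, and sums over copies.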

Additional observations from a re-analysis of the deposited data

Results flagged for a closer look

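Stfa1 moved in opposite directions depending on the other deletion. It was higher in Sp6 cKO than in wildtype, where the exact 95% interval begins at 11.97-fold, but the log2 ratio of Sp6+Sp8 cKO to Sp8 cKO was -1.82. Likewise it was higher in Sp8 cKO than in wildtype, where the interval begins at 14.6-fold, but the log2 ratio of Sp6+Sp8 cKO to Sp6 cKO was -1.56. Both comparisons with wildtype rest on the same 0 counts of 1 library from another batch, and 39.0% of the 31-base words of Stfa1 occur in BC100530. The difference was not tested.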

How the results depend on the processing

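The number of members past the size rule kept within 1.5 times its value in all 6 comparisons with DESeq2 size factors, library totals, library totals without the 20 most abundant genes, no minimum CPM, and a prior count of 0.5. With a minimum of 5 CPM, which tests fewer genes, it was 5 rather than 9 in Sp6 cKO, 0 rather than 3 in Sp8 cKO and 4 rather than 8 in Sp6+Sp8 cKO against wildtype. It was then 1 rather than 3 in Sp6+Sp8 cKO against Sp6 cKO and 5 rather than 8 against Sp8 cKO. A fold threshold of 1.5 gave 5 rather than 3 in Sp8 cKO against wildtype and 6 rather than 3 in Sp6+Sp8 cKO against Sp6 cKO. Where counts were summed over copies, the Serpinb6 sum had log2 ratios of -0.0597, -0.35 and -0.40 in Sp6+Sp8 cKO against wildtype, Sp6 cKO and Sp8 cKO, opposite to Serpinb6e alone, with Serpinb6a making up 58.0% to 67.2% of the sum. The Stfa sum was at 0.37 in Sp6+Sp8 cKO against Sp8 cKO, opposite to Stfa1 alone. Calls on genes with few counts, such as Serpinb3c, Serpinb6e, Stfa1 and Stfa2, are limited by depth. No paired analysis was possible because each genotype has 1 library and the labels give no replicate numbers.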
